A study of Citrus sinensis and Citrus x aurantiifolia and Citrus x latifolia with 53 samples.

Results

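A set of 150 genes had lower transcript levels in citrus trees left without water, in leaves and in roots alike, and is described here across 4 combinations of scion and rootstock. The genes were chosen from 24533 gene identifiers by their measured change. Levels were taken as CPM, the count of a gene relative to the total count of its library, scaled to the same total for all libraries. For each tissue the change was the mean over the 4 combinations of the log2 ratio of the mean water-deficit CPM plus 1 to the mean control CPM plus 1. Genes entered with a mean control level under 400 CPM in both tissues and a change of -1 or lower in both. There were 176 such genes, and the 150 whose weaker fall was strongest were kept. The fall under water deficit was therefore what the choice used, and its size in these genes is given as a description, without a test.

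The trees were limes grafted on Swingle citrumelo, a widely planted citrus rootstock. The labels list Citrus sinensis and Poncirus trifoliata as its parents, although the cultivar is generally described as a grapefruit hybrid. The scion was either diploid Mexican lime (ML) or triploid Persian lime (PL), and the rootstock was either a diploid (2x) or a tetraploid (4x) form, which gives the combinations ML2x, ML4x, PL2x and PL4x. All trees had grown for 2 years in 40 L pots in a greenhouse. Control trees (Ctrl) stayed irrigated, and water-deficit trees (WD) went 9 days without irrigation. The 26 leaf libraries comprised 11 controls and 15 water-deficit libraries, and the 27 root libraries 12 and 15. There were 3 libraries in a control group and 4 in a water-deficit group, but for PL2x leaves, with 2 and 3, and PL2x water-deficit roots, with 3. Libraries of a group came from separate trees. A leaf library is of scion genotype and a root library of rootstock genotype, so tissue and genotype cannot be told apart.

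When the soil dries, plants close their stomata and slow the growth of shoots and roots. The hormone abscisic acid builds up and sets off a broad change of transcription, in which genes of water stress protection become more active. Genes of growth and primary metabolism, such as those for cell wall loosening, cell division, photosynthesis in leaves and nutrient uptake in roots, are known to become less active in many plants. Which of these roles the 150 genes have was not measured here. The identifiers are of the kind used for the gene models of clementine (Citrus clementina), the files do not pair them with names, and 0 of them matched the sweet orange table at hand. No pathway list and no marker of leaf, root or any cell type could be measured, the tissue labels were not checked against markers, and no sequence of the genes is shown.

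Total counts ran from 3747153 to 54838385 in leaf libraries and from 1118899 to 27925992 in root libraries. The shallowest leaf libraries were PL2x Ctrl 1 (3747153) and ML2x WD 3 (4785434). The shallowest root library was ML2x WD 4 (1118899), in which 51 of the 150 genes had 0 counts. In 5 of the 8 water-deficit groups 1 library that was not shallow stood above the rest, with the members much nearer to their control levels: PL2x WD 1 of leaves, and ML4x WD 1 and PL4x WD 2 in both tissues. Scaling by TMM, which adjusts for the composition of a library, moved the median log2 change of all genes by -0.183 in leaves and 0.0600 in roots against scaling by the library total. For that reason the members' change is given beside that of all genes. In whole leaves and roots, fewer cells of a type and less RNA per cell cannot be told apart.

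Genes lower in both tissues were a smaller share of those lower in roots than of those lower in leaves, because more genes were lower in roots. Of 24047 identifiers under the ceiling of 400 CPM, 450 had a mean change of -1 or lower in leaves and 2454 in roots. The genes with both changes were 39.1% of the leaf list and 7.17% of the root list. Opposite changes of that size were found as 12 genes lower in leaves and higher in roots, and 101 genes with the reverse pattern. For comparison, 245 genes had a change of 1 or higher in both tissues. At the limit of the set, the last genes inside were Ciclev10020997m.g and Ciclev10017138m.g, whose weaker changes were both -1.06. The first genes outside were Ciclev10029672m.g at -1.06 and Ciclev10017364m.g at -1.05. A further 12 genes had both falls but exceeded the control ceiling.

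In irrigated trees the members were expressed over a wide range. Their mean control level ran from 1.88 to 380.8 CPM in leaves with a median of 15.9, against 12.7 for all genes tested, and from 2.18 to 389.3 CPM in roots with a median of 24.0, against 17.5. CPM does not account for gene length, so it ranks read numbers and not molecules between genes. In leaves 20 members exceeded 100 CPM and 29 were under 5 CPM, and in roots 22 and 17. Added up, the members took between 0.596 and 0.740% of the counts in control leaves (median 0.685%) and between 0.0841 and 0.648% in water-deficit leaves (median 0.140%). In roots they took between 0.560 and 1.06% in controls (median 0.897%) and between 0.0728 and 0.568% under water deficit (median 0.165%). The 2 treatments overlapped in both tissues, because the highest water-deficit libraries reached the range of the lowest controls.

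The member with the strongest fall in its weaker tissue was Ciclev10032548m.g. In control leaves it ranged from 21.7 to 101.3 CPM with a median of 59.3 (n = 11), and in water-deficit leaves from 0.0436 to 25.0 CPM with a median of 0.987 (n = 15). Most water-deficit leaf libraries were near 0, and those that came within the control range were PL2x WD 1 at 21.8 CPM and ML4x WD 1 at 25.0 CPM. In control roots it ranged from 8.45 to 166.5 CPM with a median of 38.1 (n = 12), and in water-deficit roots from 0 to 31.5 CPM with a median of 0.900 (n = 15). Root libraries ML4x WD 1, PL2x WD 2, PL2x WD 3 and PL4x WD 2, at 23.1, 8.63, 31.3 and 31.5 CPM, lay above the lowest control, and the other 11 lay below it. Its mean change over the combinations was -3.57 in leaves and -2.86 in roots.

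The next member, Ciclev10012583m.g, ranged from 28.8 to 95.6 CPM in control leaves (median 52.2) and from 0.956 to 53.9 CPM in water-deficit leaves (median 3.88). The leaf groups overlapped through 1 library, PL2x WD 1 at 53.9 CPM, the next highest water-deficit leaf library being PL2x WD 3 at 16.1 CPM. In roots it ranged from 32.1 to 76.3 CPM in controls (median 47.5) and from 4.08 to 15.6 CPM under water deficit (median 7.12). All 15 water-deficit root libraries lay below all 12 controls. The mean changes were -2.71 in leaves and -2.39 in roots.

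**Figure D1:**
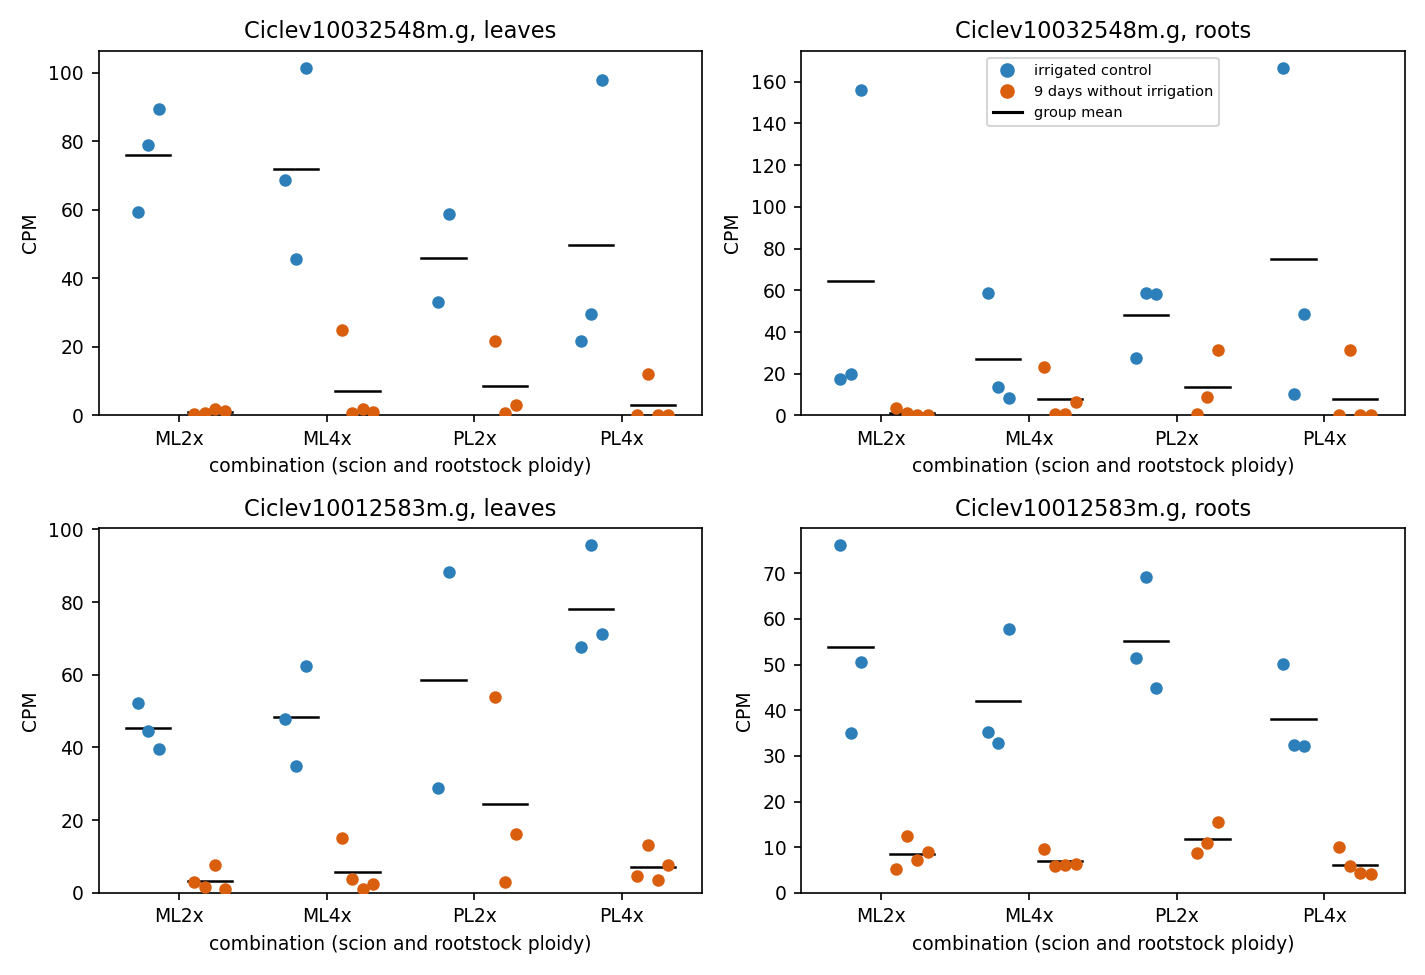
Level in CPM (vertical axis, linear) of the first 2 members of the set in each leaf and root library, by combination; each point is 1 library from 1 tree and bars are group means. Control points lie well above most water-deficit points, and Ciclev10012583m.g in roots shows no overlap, with the lowest control at 32.1 CPM and the highest water-deficit library at 15.6 CPM.

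Among the members with the most reads in control leaves, Ciclev10013129m.g ranged from 215.2 to 600.1 CPM in control leaves (median 332.1) and from 40.9 to 585.3 CPM under water deficit (median 89.1). Its root levels were far lower, from 7.44 to 30.2 CPM in controls and from 0 to 9.19 CPM under water deficit. Ciclev10020061m.g ranged from 256.4 to 487.2 CPM in control leaves and from 51.0 to 341.4 CPM in water-deficit leaves, and stayed between 5.76 and 11.6 CPM in control roots. The leaf groups of both genes overlapped. The members with the most reads in control roots were Ciclev10033140m.g and Ciclev10032534m.g. The first ranged from 286.9 to 591.7 CPM in control roots and from 61.3 to 248.7 CPM in water-deficit roots, with no overlap, and was also abundant in control leaves, from 123.9 to 783.9 CPM. The second ranged from 191.2 to 552.9 CPM in control roots and from 4.33 to 283.1 CPM under water deficit, and its control leaf level was between 10.9 and 70.3 CPM. In roots the ranges of Ciclev10032534m.g overlapped.

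The size of the members' change differed between the combinations in both tissues. In leaves of ML2x, ML4x, PL2x and PL4x the median log2 change of the 150 genes was -1.94, -1.24, -0.76 and -1.74, while the median of all genes was between 0.21 and 0.32. In roots it was -2.34, -1.31, -1.55 and -1.70 in the same order, with medians of all genes between -0.11 and -0.01. Changes of -1 or lower were found for 142, 102, 50 and 141 members in leaves and for 146, 100, 130 and 132 in roots, in the order ML2x, ML4x, PL2x and PL4x. Over the mean of the combinations the median was -1.40 in leaves (all genes 0.25) and -1.68 in roots (all genes -0.08).

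The fit of edgeR, which tests raw counts against the spread between trees, called 149 members lower in leaves and 150 in roots for that mean response at an adjusted p under 0.05. Among all genes tested, 20.3% were called lower in leaves and 30.7% in roots. Nothing is read from the members' counts, since the choice used this contrast. Within combinations it called 108 members lower in ML2x leaves (5.35% of all genes), 7 in ML4x leaves (0.256%) and 105 in PL4x leaves (12.3%). In PL2x leaves edgeR called 0 (0% of all genes), with 27 lower at an unadjusted p under 0.05 (8.63% of all genes). DESeq2 called 11 there (share of all genes not given). In roots of ML2x edgeR called 135 (22.9%), of ML4x 52 (7.97%), of PL2x 22 (1.45%) and of PL4x 73 (9.64%).

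Most members fell in every combination, which the choice favours because the rule averaged these same changes. The counts below are therefore a description of the set. Among all genes tested, between 32.0 and 36.3% were below 0 in leaves of a single combination, and between 50.5 and 58.4% in roots. Of the 150 genes, 136 were below 0 in all 8 pairs of combination and tissue, and 19 were at -1 or lower in all 8, of 20 such genes among all identifiers. A further 49 members were at -1 or lower in 7 of 8 pairs, 48 in 6, 24 in 5 and 10 in 4. The other 14 members were at or above 0 in some pair, mostly in PL2x leaves, where 9 members had a change above 0. Ciclev10003574m.g, picked after its values were seen, shows how uneven a member can be. In leaves its changes were -1.18, -2.60 and -4.92 in ML2x, ML4x and PL2x but 0.13 in PL4x, and its control leaf libraries alone ranged from 0.473 to 139.0 CPM.

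**Figure D2:**
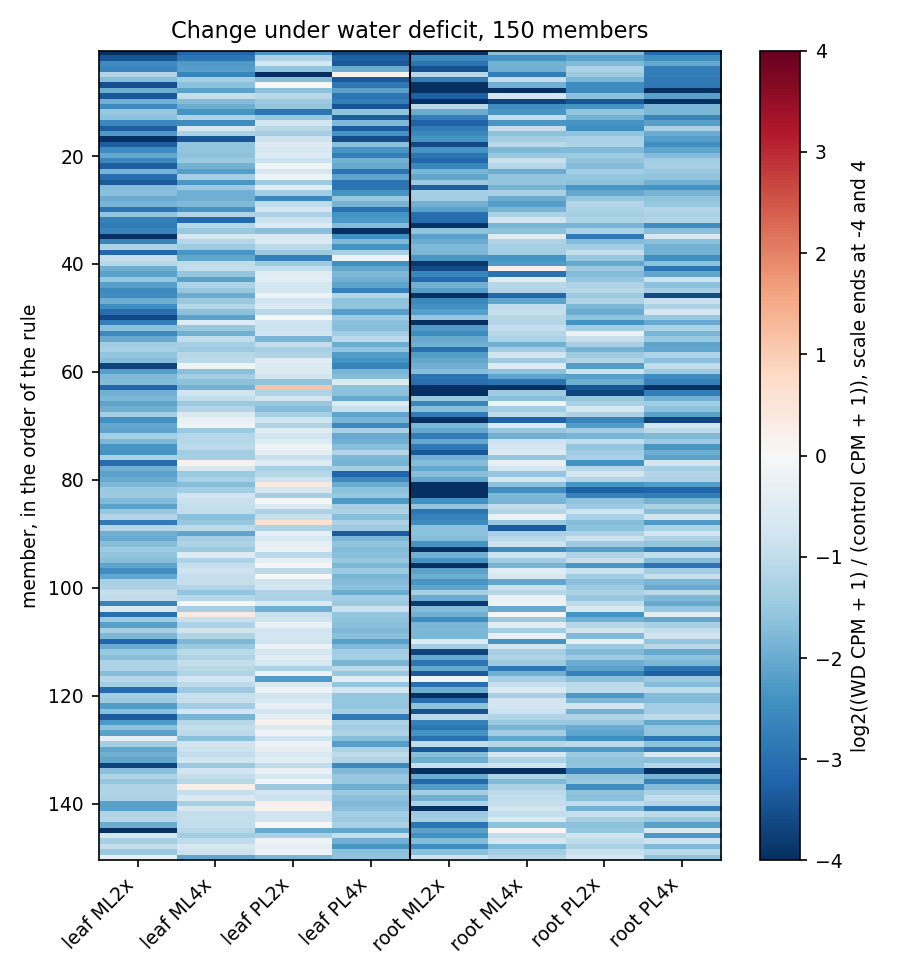
Log2 change under water deficit for each of the 150 members (rows, in the order of the rule) in leaves and roots of each combination (columns); blue is lower under water deficit, red is higher, and the colour scale ends at -4 and 4. Blue fills nearly all cells, the palest column is that of PL2x leaves with a median of -0.76, and the darkest is that of ML2x roots with a median of -2.34.

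A score per library showed how evenly trees of a group shared the fall. The score was the median over the 150 members of log2(CPM + 1) minus the mean of the same quantity over the controls of that combination. Control scores lay between -0.20 and 0.25 in leaves and between -0.60 and 0.29 in roots, where PL4x Ctrl 2 was the lowest. In leaves the scores under water deficit were -1.50, -2.05, -2.16 and -2.27 in ML2x and -0.61, -1.35, -1.91 and -1.59 in ML4x, for libraries WD 1 to WD 4. They were -0.07, -2.13 and -0.79 in PL2x, for WD 1 to WD 3, and -2.40, -0.66, -2.23 and -2.57 in PL4x. In leaves all water-deficit libraries but PL2x WD 1 scored below every control.

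In roots the scores were -1.83, -2.45, -2.72 and -2.80 in ML2x and -0.44, -1.94, -2.34 and -1.42 in ML4x, for WD 1 to WD 4. They were -2.37, -1.55 and -1.02 in PL2x, for WD 1 to WD 3, and -1.88, -0.60, -2.48 and -2.72 in PL4x. ML4x WD 1 scored above the lowest control root, PL4x WD 2 was level with it at -0.60, and the other 13 water-deficit libraries scored below all controls. In leaves the mean score of ML2x, ML4x, PL2x and PL4x was -1.997 ± 0.34, -1.36 ± 0.55, -0.999 ± 1.05 and -1.96 ± 0.88 (SD, n = 4, 4, 3 and 4). It was -2.45 ± 0.44, -1.53 ± 0.82, -1.65 ± 0.68 and -1.92 ± 0.95 in roots in the same order. The groups overlapped in their scores, and the widest spread was that of PL2x leaves.

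**Figure D3:**
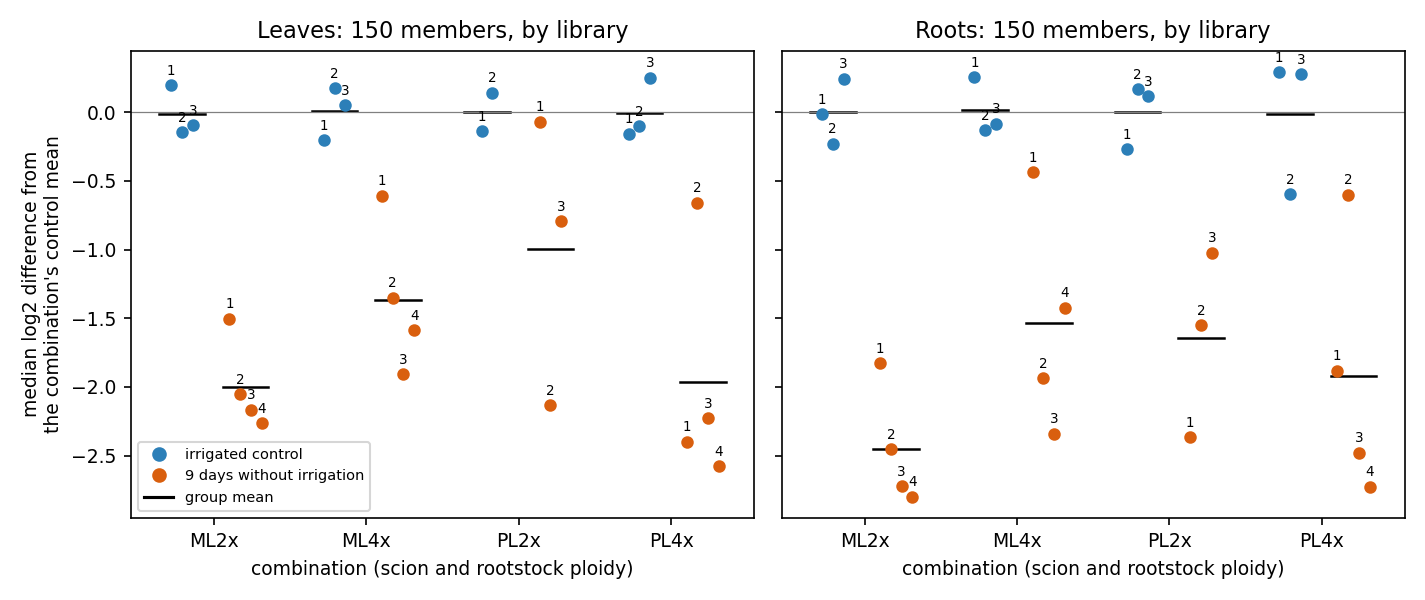
Score of each library, the median over the 150 members of the log2 difference from the control mean of its combination (vertical axis), in leaves and roots; numbers beside points are library numbers and bars are group means. Controls lie around 0, most water-deficit libraries lie below -1, and PL2x WD 1 of leaves (-0.07), ML4x WD 1 and PL4x WD 2 stand above the others of their groups.

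In each combination and tissue 1 library held the highest level of its water-deficit group for most members. In ML4x, WD 1 had the highest level of its water-deficit group for 113 of 150 members in leaves (15.0% of all genes tested) and for 130 in roots (39.9%). In PL4x, WD 2 had the highest level for 143 members in leaves (43.1%) and 137 in roots (43.2%). In PL2x, WD 1 had the highest level for 126 members in leaves (23.9%) and WD 3 for 127 in roots (39.6%). In ML2x, whose scores were less spread, WD 1 had the highest level for 99 members in leaves (28.0%) and 101 in roots (35.2%). The depths were not low for the libraries with the least fall, at 25067881 and 23763722 counts for ML4x WD 1, 22796870 and 27925992 for PL4x WD 2 (leaves and roots) and 13599957 for PL2x WD 1. Whether a leaf and a root library of equal number came from 1 tree is not stated in the labels, and the cause of their position was not tested.

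Those libraries carried weight in the group medians. Without WD 1 the leaf median of ML4x was -1.63 and its root median -1.80. Without WD 2 the leaf median of PL4x was -2.45 and its root median -2.39. The median of PL2x leaves depended most on single libraries, being -1.41 without WD 1, -0.36 without WD 2, -0.76 without WD 3, -0.81 without Ctrl 1 and -0.58 without Ctrl 2.

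On the CPM scale of the rule, the fall was similar in both tissues for many members and larger in roots for more members than in leaves. The leaf and root changes lay within 0.5 of each other in 85 members. The leaf change was the lower in 54 and the root change in 96, and the leaf change minus the root change ran from -1.47 to 3.92. Changes of -2 or lower were found for 21 members in leaves, for 44 in roots and for 7 in both. These figures are on the scale with 1 CPM added, which shrinks the change of genes with low levels, so a gene at a few CPM in a tissue cannot reach a low value there. The order of the tissues depended on that scale. In the edgeR fit, scaled by TMM, the members' median mean response was -2.05 in leaves (all genes 0.09) and -1.97 in roots (all genes -0.02).

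The members whose root change was lowest relative to their leaf change were Ciclev10000364m.g and Ciclev10024569m.g. Ciclev10000364m.g ranged from 89.5 to 1148 CPM in control roots (median 293.7) and from 0 to 143.0 CPM in water-deficit roots (median 0.782), while in leaves it ranged from 2.94 to 10.7 CPM in controls and from 0.209 to 6.69 CPM under water deficit. Its groups overlapped in both tissues. Ciclev10024569m.g ranged from 26.0 to 228.2 CPM in control roots (median 71.7) and from 0 to 14.6 CPM under water deficit (median 0.118), with no overlap. Its leaf groups overlapped widely, from 7.81 to 65.8 CPM in controls and from 0.0508 to 46.2 CPM under water deficit.

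At the other end were Ciclev10012167m.g and Ciclev10007057m.g. The first ranged from 82.5 to 255.3 CPM in control leaves (median 159.9) and from 0.153 to 98.5 CPM in water-deficit leaves (median 5.09), with root ranges of 19.7 to 65.0 and 1.79 to 23.3 CPM. The second ranged from 31.3 to 117.9 CPM in control leaves (median 72.3) and from 0.102 to 73.1 CPM in water-deficit leaves (median 2.57). Its root levels were low in controls too, from 0.0841 to 16.6 CPM, and from 0 to 2.85 CPM under water deficit. All groups of these 2 genes overlapped within a tissue.

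Complete separation of all trees was rare in leaves. In 3 members every water-deficit leaf library lay below every control leaf library, and 0.0993% of all genes tested did so. In roots 23 members separated in this way, against 1.58% of all genes tested. No member separated in both tissues. The rule favours such genes, so these counts are a description of the set.

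Because the set was chosen on all combinations, the fall was measured again in trees that had no part in a choice. The same rule was applied to 3 combinations at a time, and the genes it kept were counted in the libraries of the combination left out. With ML2x left out 133 genes qualified and all were kept, and with ML4x, PL2x or PL4x left out 242, 236 and 151 qualified and 150 were kept. These lists shared 109, 129, 128 and 129 genes with the set of 150. That many genes fall in several combinations was known beforehand, so the counts measure how far the fall extends and are not independent evidence of it.

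In the left-out roots, between 91 and 125 of the genes so chosen had a change of -1 or lower. In ML2x roots 120 of 133 did, against 20.3% of all genes, and edgeR called 111 lower (22.9% of all genes). In ML4x roots 91 of 150 did (8.44% of all genes) and 48 were called lower (7.97%), and in PL2x roots 125 did (10.0%) and 18 were called (1.45%). In PL4x roots 123 did (12.5%) and 67 were called (9.64%). The median log2 change of the chosen genes was -2.21, -1.24, -1.54 and -1.63 in the same order, and none was called higher in any left-out combination.

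In left-out leaves the counts were more uneven. In ML2x leaves 107 of 133 genes had a change of -1 or lower (5.53% of all genes) and 82 were called lower by edgeR (5.35%). In ML4x leaves 96 of 150 did (2.06%) and 6 were called (0.256%), with 77 lower at an unadjusted p under 0.05 (8.10%). DESeq2 called 33 there (share of all genes not given). In PL4x leaves 132 did (6.15%) and 96 were called (12.3%). In PL2x leaves 42 did (2.89%) and edgeR called 0 (0% of all genes), with 22 lower at an unadjusted p under 0.05 (8.63%). DESeq2 called 8 there (share of all genes not given). For ML2x, ML4x, PL2x and PL4x the medians were -1.70, -1.17, -0.68 and -1.72, and 132 of 150 genes were below 0 even in PL2x leaves.

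The number called in a left-out combination depended on single libraries, and so did the share of all genes called lower, given in brackets. In ML2x leaves the 82 calls became 2 without Ctrl 1 (0.141%), 29 without Ctrl 2 (1.14%) and 8 without Ctrl 3 (0.356%). They became 22 without WD 2 (1.34%), 34 without WD 3 (2.06%) and 18 without WD 4 (1.21%). In ML4x leaves the 6 calls became 25 without WD 1 (1.23%). They became 0 without any other library of the group, controls included (between 0 and 0.0418%). In PL2x leaves there were 14 without WD 1 (3.35%). In PL4x leaves the 96 calls became 63 without WD 1 (8.72%) and 61 without WD 4 (7.31%). The highest count there with a library left out was 138, and the share of all genes was highest without WD 2, at 19.6%. In ML4x roots there were 73 without WD 1 (11.6%). In PL2x roots there were 3 without Ctrl 2 (0.174%), 3 without WD 1 (0.135%), 6 without WD 2 (0.256%) and 31 without WD 3 (2.84%). In PL4x roots there were 134 without WD 2 (19.5%), 43 without Ctrl 1 (5.37%) and 42 without Ctrl 3 (5.46%). There were 41 without WD 3 (5.07%) and 40 without WD 4 (5.33%).

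**Figure D4:**
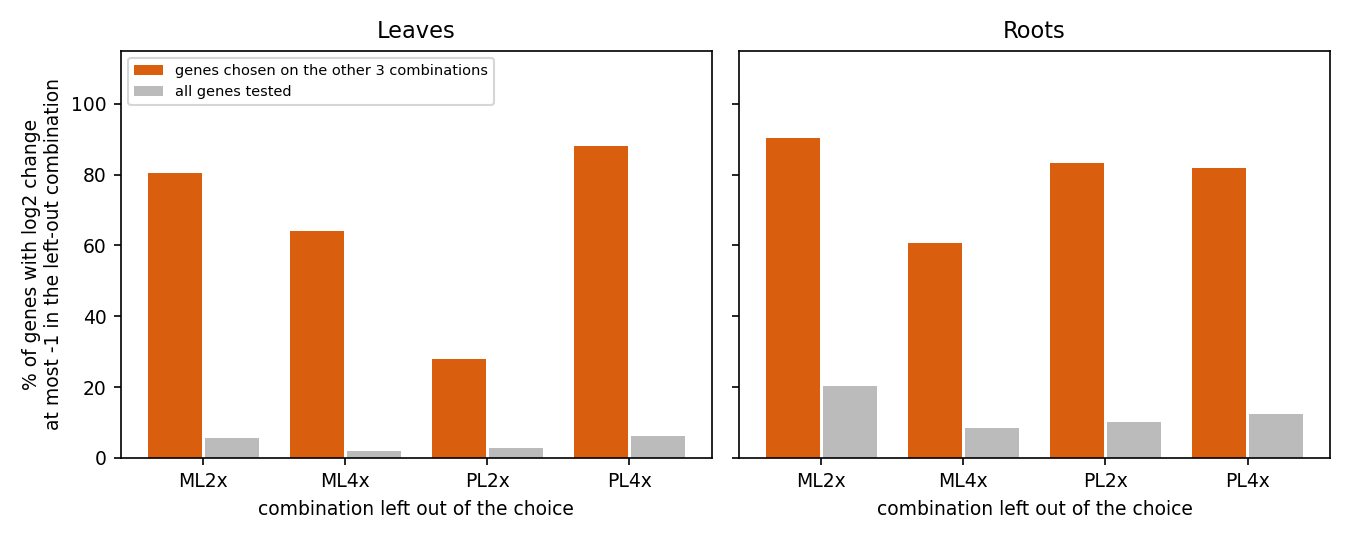
Percentage of genes with a log2 change of -1 or lower (vertical axis, from 0) in the combination left out of the choice, for the 133 or 150 genes chosen on the other 3 combinations and for all genes tested, in leaves and roots. The chosen genes stand above all genes in each of the 8 pairs, from 42 of 150 genes in PL2x leaves to 120 of 133 in ML2x roots.

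The design asks whether the response differs between diploid and tetraploid rootstocks, and no member passed the test for such a difference. The tested quantity was the log2 response on the tetraploid minus that on the diploid rootstock, fitted by edgeR over all genes. Under Mexican lime the members' median difference was 1.03 in leaves and 1.27 in roots, a smaller fall on the tetraploid, with 135 and 130 members above 0. The median of all genes was 0.04 in both tissues. edgeR called 0 members in either tissue (0% of all genes), with 8 and 19 at an unadjusted p under 0.05 (3.25% and 14.3% of all genes), and DESeq2 called 0 members, of 0 and 278 genes in all. The median SE of a single member's difference was 1.12 in leaves and 1.00 in roots, close to the size of the median differences.

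Under Persian lime the members' median difference was -1.66 in leaves, a larger fall on the tetraploid, with 13 members above 0, and -0.37 in roots, with 50 above 0. The median of all genes was -0.04 in both. edgeR called 0 members (0% of all genes), with 17 and 6 at an unadjusted p under 0.05 in leaves and roots (10.3% and 3.19% of all genes), and DESeq2 called 0 members, of 70 and 1 genes in all. Leaving out the leaf library PL4x WD 2 moved the leaf median to -2.99 and gave 53 calls (9.54% of all genes), and leaving out PL2x WD 1 moved it to -0.86. In roots the median was -1.36 without PL4x WD 2 and 0.24 without PL2x WD 3. Under Mexican lime the lowest medians were those without ML4x WD 1, at 0.44 in leaves and 0.68 in roots.

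Averaged over both scions the rootstock difference of the response had a median of -0.33 in leaves and 0.42 in roots. edgeR called 0 members in either tissue (0% of all genes), with 4 and 13 at an unadjusted p under 0.05 (3.41% and 9.41% of all genes), and DESeq2 called 0 members, of 0 and 110 genes in all. Without PL4x WD 2 these medians were -0.997 and -0.15. They were 0.02 in leaves without PL2x WD 1 and 0.75 in roots without PL2x WD 3. The sign of the median thus rested on which library was kept.

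Between the scions the response of the members, Persian minus Mexican lime, had a median of 0.45 in leaves and 0.37 in roots, with 109 and 117 members above 0. edgeR called 0 members in leaves (0.00522% of all genes) and 0 in roots (0%), with 4 and 2 at an unadjusted p under 0.05 (14.5% and 3.23% of all genes), and DESeq2 called 0 members, of 148 and 0 genes in all. Without PL4x WD 2 the medians were -0.23 in leaves and -0.21 in roots. They were 0.98 and 0.72 without ML4x WD 1.

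Levels in irrigated roots differed between rootstocks for 2 members. edgeR called 1 member higher and 1 lower on the tetraploid, where 0.763% and 2.28% of all genes tested were called, 3.05% in all. Ciclev10007057m.g ranged from 1.88 to 16.6 CPM in diploid control roots (median 7.44, n = 6) and from 0.0841 to 1.24 CPM in tetraploid ones (median 0.114, n = 6). The groups did not overlap, and the log2 difference was -4.75 ± 0.80 (SE, edgeR adjusted p = 0.0016). It was called under all 32 alternatives, with adjusted p up to 0.0087. The root change of this gene under water deficit was -2.14 in ML2x and -1.55 in PL2x, but -0.0058 in ML4x and -0.60 in PL4x. Mean control root levels on the tetraploid were only 0.105 CPM in ML4x and 0.675 CPM in PL4x. With 1 CPM added, a fall from such levels can hardly show. Whether the root fall was smaller on the tetraploid rootstock thus cannot be told from these changes.

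Ciclev10001043m.g was higher on the tetraploid, from 0.656 to 1.31 CPM in diploid controls (median 0.849) and from 0.853 to 19.5 CPM in tetraploid controls (median 3.596). These groups overlapped, and the difference was 2.69 ± 0.60 (SE, edgeR adjusted p = 0.012). It was called under 30 of 32 alternatives, with adjusted p up to 0.066, and the number of members called fell to 1 without ML4x Ctrl 1 or without PL4x Ctrl 2. In irrigated leaves edgeR called 0 members for the rootstock (0% of all genes), with 1 at an unadjusted p under 0.05 (2.05% of all genes) and 0 called by DESeq2.

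Under water deficit edgeR called 1 member for the rootstock in roots, higher on the tetraploid (0.235% of all genes, with 0.122% lower and 0.357% in either direction). Ciclev10030843m.g ranged from 1.79 to 20.1 CPM in diploid water-deficit roots (median 7.52, n = 7) and from 12.4 to 96.9 CPM in tetraploid ones (median 20.1, n = 8). The groups overlapped, and the difference was 1.98 ± 0.44 (SE, edgeR adjusted p = 0.049). The call held under 6 of 32 alternatives, with adjusted p from 0.00075 to 0.11. It was kept only by DESeq2 and without ML2x Ctrl 1, ML2x Ctrl 3, ML4x WD 2, PL4x WD 1 or PL4x WD 3, and lost without any other root library. In leaves edgeR called 0 members (0% of all genes), with 7 at an unadjusted p under 0.05 (5.28%), 0 by DESeq2 and 4 without PL4x WD 2 (2.38%).

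Between scions, 6 members were called higher in Persian than in Mexican lime in irrigated leaves and 0 lower, against 6.18% and 6.23% of all genes tested (12.4% in all). Under water deficit again 6 were called higher and 0 lower, against 3.73% and 1.98% (5.71% in all), and 4 members were called in both treatments, as were 2.98% of all genes. Mexican and Persian lime leaves differ in genotype, so a difference in how their reads matched the reference cannot be told apart from one in expression.

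Ciclev10006208m.g ranged from 0.281 to 1.202 CPM in 6 control leaf libraries of Mexican lime (median 1.13) and from 4.54 to 11.6 CPM in 5 of Persian lime (median 7.17). These did not overlap, and the log2 difference was 3.13 ± 0.87 (SE, edgeR adjusted p = 0.023). With edgeR or DESeq2 this call was kept under 28 of 31 alternatives, with an adjusted p of up to 0.081 (without PL2x Ctrl 2). Under water deficit it ranged from 0 to 0.519 CPM in Mexican lime (n = 8) and from 0.0436 to 13.0 CPM in Persian lime (n = 7), which overlapped, with a difference of 4.29 ± 0.92 (SE, edgeR adjusted p = 0.0040). Ciclev10005306m.g differed by 1.66 ± 0.55 in controls (SE, edgeR adjusted p = 0.049), a call kept under 11 of 31 alternatives, and by 2.49 ± 0.57 under water deficit (SE, edgeR adjusted p = 0.0077). Its ranges overlapped in both treatments, from 1.35 to 12.5 CPM in Mexican and from 8.18 to 30.4 CPM in Persian lime control leaves, and from 0.0485 to 1.52 and from 0.622 to 6.36 CPM under water deficit.

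The 6 control calls became 3 without either ML2x Ctrl 1 or PL2x Ctrl 1, 2 without either ML2x Ctrl 3 or PL4x Ctrl 1, and 1 when PL2x Ctrl 2 was left out. Those drops are given without the shares of all genes called, so they are not read as particular to the members. The 6 calls under water deficit became 16 without ML4x WD 1, 3 without ML4x WD 3 and 18 without PL2x WD 2, where 5.95%, 4.67% and 6.47% of all genes were called. In roots, which share the rootstock genotype under both scions, edgeR called 0 members in controls (0% of all genes) with 2 at an unadjusted p under 0.05 (3.86%), and 0 under water deficit (0%) with 5 (5.96%). DESeq2 called 0 members in either treatment there.

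The level of the members in irrigated trees was compared between leaves and roots. By mean control CPM, 37 members were at least 2-fold higher in leaves, 63 at least 2-fold higher in roots and 50 within 2-fold. The shares of all genes in these classes are not given, so no lean of the set to a tissue is read from them. In a fit of both tissues, scaled by TMM, edgeR called 57 members higher in control leaves, 52 higher in control roots and 41 in neither direction. The tissue with more members thus differed between these measures. Among all genes tested 31.3% were called higher in leaves and 48.6% higher in roots and 79.8% in either direction, against 72.7% of the members. The median log2 difference, leaves minus roots, was 0.19 for the members and -0.36 for all genes, with DESeq2's size factors 0.23 and -0.31.

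Members that were called and differed by more than 8-fold numbered 17 in the direction of leaves (8.52% of all genes tested) and 19 in that of roots (17.9%). Ciclev10009914m.g ranged from 211.9 to 575.8 CPM in control leaves and from 2.05 to 8.74 CPM in control roots, a log2 difference of 6.82 ± 0.41 (SE, edgeR adjusted p = 8.5e-19). Ciclev10007057m.g differed by 6.30 ± 0.86 (SE, edgeR adjusted p = 1.3e-08). In the other direction, Ciclev10007510m.g ranged from 0.962 to 5.84 CPM in control leaves and from 86.8 to 308.3 CPM in control roots, a difference of -5.47 ± 0.56 (SE, edgeR adjusted p = 1.4e-11). Ciclev10000364m.g differed by -5.38 ± 0.84 (SE, edgeR adjusted p = 2.7e-07). The control ranges of leaves and roots did not overlap for any of these 4 genes, the closest being Ciclev10007057m.g with its lowest control leaf at 31.3 CPM and its highest control root at 16.6 CPM.

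The fall was present in members of either tissue preference. The 57 members higher in leaves had a median change of -1.49 in leaves and -1.49 in roots. The 52 higher in roots had medians of -1.34 in leaves and -1.83 in roots, and the 41 not called had -1.39 and -1.70. The condition on both tissues bounds these medians at -1, and they are given without a test. The 1 CPM added shrinks the change of genes with low levels. A weaker leaf change of the root-higher members therefore cannot be told apart from an effect of that scale.

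**Figure D5:**
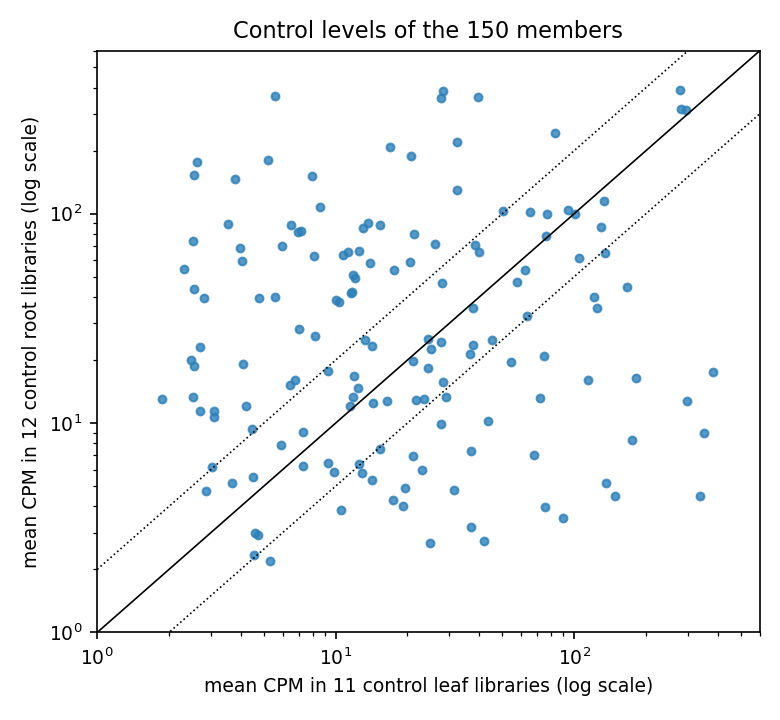
Mean control level of each of the 150 members in leaves (horizontal axis, 11 libraries) and roots (vertical axis, 12 libraries), in CPM on log axes; the solid line marks equal levels and the dotted lines a 2-fold difference. The points spread to both sides of the equal line, with 37 members beyond the dotted line on the leaf side, 63 on the root side and 50 between. The shares of all genes in these classes are not given.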

How the data were processed

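RNA of leaves and roots was sequenced from libraries made with a stranded mRNA kit, per the labels' protocols. The authors deposited raw counts per gene, 1 table per tissue; the submitters' processing notes name Trimmomatic, a read trimmer, and HTSeq, a read counter. The sources used here do not give aligner, genome build, versions or strand setting, so reads of overlapping or near-identical genes may be shared. The members and lists were chosen with earlier results of these data known.

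CPM used column totals and a pseudocount of 1. Tests used edgeR 4.0.16 in R 4.3.3 (filterByExpr, TMM, glmQLFit robust, glmQLFTest) on all 8 groups of a tissue, or all 16 groups for leaf against root. The p-values were adjusted by Benjamini-Hochberg over the 19140 genes tested in leaves, 20452 in roots and 21565 in both, and genes with an adjusted p under 0.05 were called. All 150 members passed the filter in each fit. SE is that of the fitted log2 fold change. The common biological coefficient of variation was 0.38 in leaves and 0.371 in roots. Among 64 pairs of libraries within groups the smallest mean chi-square per gene was 13.7, so no pair agreed within sampling noise. The code was tested on simulated data. For the rootstock difference of the response over both scions, it recovered 13 of 100 simulated 2-fold differences in leaves and 8 of 100 in roots. Of 100 simulated 4-fold differences it recovered 72 in leaves and 75 in roots. Differences of 2-fold were thus mostly missed in that simulation.

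Identifiers named are, by rule, the first 2 members, the 2 with the most control CPM per tissue, the 2 at each end of the leaf minus root change, the 2 called with the largest difference in each direction of a contrast, and 2 on each side of the limit. Ciclev10003574m.g was chosen after its values were seen. Alternatives were DESeq2 1.42.0, DESeq2's size factors, no filter, a replicate block, other pseudocounts, each library left out in turn and, added after the data were examined, the 3 shallowest libraries left out.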

Additional observations from a re-analysis of the deposited data

Results flagged for a closer look

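In 18 checks, on the water-deficit groups with 4 libraries, the score over all members and the levels of the first 2 members were searched for a library far from the other 3 of its group. In 4 checks such a library was found, none of them on the score. Chance flags about 1 in 20 groups. Ciclev10032548m.g stood at 25.0 CPM in leaf library ML4x WD 1, with the others of that group at 1.88 CPM or lower. It stood at 12.2 CPM in leaf library PL4x WD 2 and at 31.5 CPM in root library PL4x WD 2, where the other 3 were near 0. Ciclev10012583m.g stood at 9.68 CPM in root library ML4x WD 1, the others lying between 5.94 and 6.37 CPM. Both libraries also had the highest scores over all members in their groups. The cause was not tested.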

How the results depend on the processing

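The numbers of replicates do not name pairs of trees in the labels. Same-numbered libraries had median correlations of -0.0053 in leaves, -0.073 in roots and 0.094 between leaf and root. For other numbers these medians were 0.029, 0.0067 and -0.021. The pairs of leaf and root did not include PL2x. With these medians, not every same-numbered pair exceeded 0.1. Of the recomputed counts of calls and values of the set, 660 stayed within 1.5 times or the spread, and 80 moved. The medians of differences of the response, which are not among them, changed sign without single libraries as given above. The set itself kept 87 of its genes with a pseudocount of 0.1, 51 with 5 and 61 with edgeR's fold changes (690 genes qualifying, the 150 among them). With a replicate block the counts of members called were 3 for scion in control leaves, 0 for rootstock in water-deficit roots, and for the left-out combinations 35 in ML2x and 0 in ML4x leaves. For rootstock in water-deficit roots DESeq2 called 7 (468 of all genes) and no member was called with DESeq2's size factors, with no filter or without the 3 shallowest libraries (0 each). DESeq2 called 12 for scion in water-deficit leaves (1580 of all genes) and, for left-out combinations, 33 in ML4x leaves, 8 in PL2x leaves and 42 in PL2x roots. These counts for left-out combinations, and those with a replicate block, have no share of all genes beside them. Without the 3 shallowest libraries the count in left-out ML2x leaves was 26, also without a share of all genes, so it is not read as particular to the chosen genes.

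With 1 library left out at a time, the set kept between 133 and 149 of its genes, and its median change lay between -1.57 and -1.31 in leaves and between -1.84 and -1.63 in roots. Calls for left-out combinations ranged in leaves from 2 to 90 in ML2x, 0 to 25 in ML4x, 0 to 14 in PL2x and 61 to 138 in PL4x. Of all genes, 0.141 to 7.77%, 0 to 1.23%, 0 to 3.35% and 6.82 to 19.6% were called lower there. In roots the calls ranged from 84 to 111, 32 to 73, 3 to 31 and 40 to 134. The shares of all genes were 15.9 to 24.3%, 3.94 to 11.6%, 0.135 to 2.84% and 5.07 to 19.5%. The ranges for rootstock, scion and tissue that follow have no such share beside them. Calls for rootstock ranged from 1 to 3 in control roots, 0 to 4 in water-deficit leaves, 0 to 3 in water-deficit roots and 0 to 53 for the response of Persian lime leaves. Calls for scion ranged from 1 to 9 in control leaves and 3 to 18 in water-deficit leaves, and those between tissues from 99 to 111. With 1 PL2x control leaf library left out, the other is assumed to vary like the other groups. With 2 to 4 libraries a group, the median SE of a single member's difference of response between rootstocks was 1.23 in Persian lime leaves.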
